A study of Mus musculus with 8 samples.

Results

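Moxd1, Nrip3 and Tmem108 are 3 genes whose transcripts read lower in mouse melanocytes with a Cre-driven deletion of Atg7 (KO) than in melanocytes with Atg7 (WT). They were selected on the measured KO minus WT difference, and found by symbol in the platform's probe-set annotation. They are described here with Dbh and Pam, related copper monooxygenase genes, as 5 of the 22180 genes tested. A gene with several single-symbol probe sets is represented by its brightest on average. Moxd1 was the 1 gene past an adjusted p of 0.05 in the lower direction when KO was compared with WT over both treatments in a limma fit with a term for the replicate number, called the number block below (0.00451% of the genes tested, beside 0.0271% in the higher direction). That call was lost without the block, with the sham and UVA arrays of each genotype and number averaged first, and with any 1 array left out: each of these limma fits called 0 genes (517 at an unadjusted p under 0.05 without the block). The averaged fits had 2 residual degrees of freedom, or 1 with the block, and an omitted array also lowers them. A call lost in those fits says little about Moxd1. Nrip3 and Tmem108 stood next to it in size of difference without passing. Because these 3 genes were chosen for being lower in KO, every KO minus WT value of theirs is a description, with no test. This holds for the Moxd1 call under any fit.

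The arrays hold RNA of melanocytes, the pigment cells of the skin, taken from pups aged 1 to 5 days and kept in culture for 22 days. KO cells carried Atg7 f/f with Tyr::Cre, in which the tyrosinase promoter drives Cre recombinase in pigment cells, and WT cells carried Atg7 f/f alone, so both genotypes carry the floxed alleles. Cells received 20 J/cm² of UVA-1 or a sham treatment and were lysed 6 h later. The groups KO sham, WT sham, KO UVA and WT UVA had 2 arrays each, which the submitters call biological duplicates, all labelled female. The duplicates are numbered 1 and 2 in every group, and arrays of 1 number are called a replicate here. What a number marks (a litter, a day, a culture) is not stated. A matched pair below is the KO and the WT array of 1 treatment and 1 number, or the UVA and the sham array of 1 genotype and 1 number.

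Copper monooxygenases use copper and ascorbate to add oxygen to a substrate. DBH turns dopamine into noradrenaline inside secretory vesicles, and PAM amidates the ends of peptide hormones, among them melanocyte-stimulating hormone. MOXD1 resembles DBH in sequence and resides in the endoplasmic reticulum, and its natural substrate is not settled. In the chick and in human neuroblastoma MOXD1 has been tied to the neural crest, the embryonic source of melanocytes. NRIP3, nuclear receptor interacting protein 3, resembles retroviral-type aspartic proteases. TMEM108, also called retrolinkin, is a membrane protein described in neurons, where it takes part in endosome traffic and in signalling of the neurotrophin BDNF through its receptor TrkB. ATG7 is the E1-like enzyme of LC3 conjugation.

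The sequence upstream of Moxd1 and of Tmem108 is shown because these are members lower in KO for which RefSeq gave a promoter. Of the 5 genes, 4 matched in RefSeq's promoter table of the build GRCm38.p6. The 250 bases before the annotated start site are printed 5′ to 3′ on the strand of the gene. Capitals mark CACGTG and CATGTG, cores of the E-box to which MITF, the master regulator of melanocytes, can bind, and the GC box GGGCGG or its reverse complement.
Moxd1, chr10:24223267-24223516, plus strand: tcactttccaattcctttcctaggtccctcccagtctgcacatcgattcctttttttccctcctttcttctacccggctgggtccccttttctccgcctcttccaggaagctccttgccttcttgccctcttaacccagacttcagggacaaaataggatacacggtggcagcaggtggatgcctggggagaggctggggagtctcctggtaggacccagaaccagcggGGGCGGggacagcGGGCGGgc
Tmem108, chr9:103761838-103762087, minus strand: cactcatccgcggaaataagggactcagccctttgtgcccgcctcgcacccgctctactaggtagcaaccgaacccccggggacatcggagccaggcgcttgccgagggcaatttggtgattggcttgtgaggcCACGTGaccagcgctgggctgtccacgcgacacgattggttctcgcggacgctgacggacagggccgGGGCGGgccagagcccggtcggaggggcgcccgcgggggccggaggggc
The Moxd1 stretch held GGGCGG 2 times and neither E-box core. The Tmem108 stretch held 1 CACGTG, which begins 116 bases before the start site, and 1 GGGCGG. A second annotated start of Tmem108 had no match to these 3 motifs, and the Dbh stretch held 1 CATGTG. Searched on both strands, CACGTG was found in 6.02% of 32851 promoters of the same length, CATGTG in 12.2% and GGGCGG in 32.7%. TGANTCA, the AP-1 motif (6.75% of promoters), and TGACNNNGC, the core of the antioxidant response element (10.2%), were found in none of the Moxd1 and Tmem108 stretches. CACGTG reads the same on both strands, and none of the marked matches overlap. A match is a run of letters and shows no binding.

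The replicate number was the main divide among the arrays: the first principal component, with 77.7% of the variance, separated the numbers. The probe set for Atg7, the targeted gene, read 831 and 598 in KO sham (replicates 1 and 2), 989 and 859 in WT sham, 804 and 602 in KO UVA, and 1004 and 832 in WT UVA, so KO was lower in each pair, though KO sham of replicate 1 and WT UVA of replicate 2 nearly met. Its probes' exons are not known here, and the values do not check the deletion. Markers of melanocytes summed to 71007 to 108360 intensity units in KO arrays and to 68778 to 124034 in WT arrays (14 of 14 markers measured). Markers of fibroblasts, which can grow in cultures from pup skin, summed to 36603 to 68785 in KO and to 25202 to 65414 in WT (13 of 13 measured). These sums also differed between the numbers. Melanocyte markers summed to 72176 in replicate 1 and 124034 in replicate 2 of WT sham, and to 71007 and 107130 in KO sham. Fibroblast markers summed to 65414 and 26339 in WT sham, and to 68785 and 38327 in KO sham. The part of this make-up in the divide between the numbers was not tested. No marker is at 0, since the lowest intensity on any array was 7 and the files hold no detection calls.

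Moxd1 separated the genotypes on every array. It read 296 and 313 in KO sham (replicates 1 and 2), against 566 and 529 in WT sham. After UVA it read 236 and 246 in KO, against 446 and 483 in WT. No KO array reached any WT array, with a gap between the highest KO array at 313 and the lowest WT array at 446, and the duplicates of each group were close. Such a complete separation in the lower direction held for 0.942% of the genes tested, a measure that comes from the contrast that chose the gene. The KO level was 0.537 of the WT level over both treatments, a difference of -0.90 on the log2 scale (SE 0.07 with the number block). The difference was -0.94 and -0.76 after sham in replicates 1 and 2, and -0.92 and -0.97 after UVA.

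**Figure D1:**
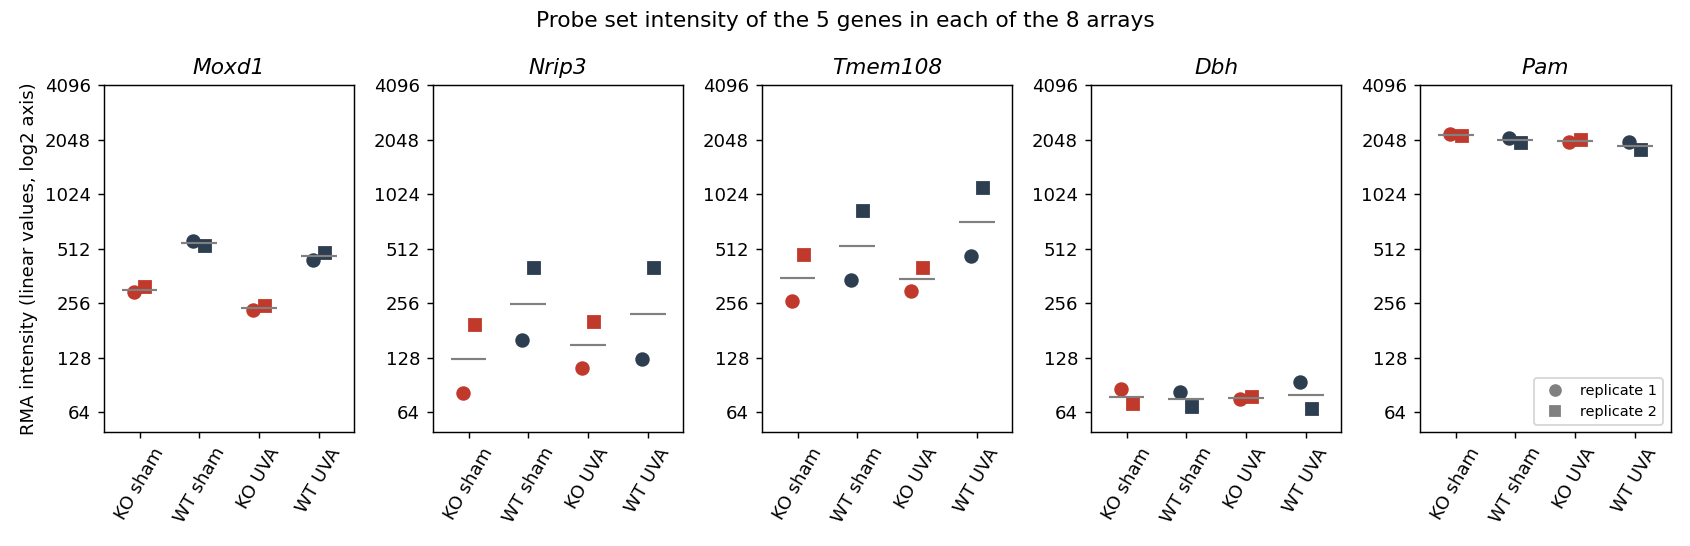
RMA intensity (linear values on a log2 axis) of the 5 genes on each of the 8 arrays, with KO in red and WT in dark blue, circles for replicate 1, squares for replicate 2 and a grey line at the geometric mean of each group. Moxd1 duplicates lie close together and the genotypes do not overlap, while Nrip3 and Tmem108 differ more between the replicates, and Dbh and Pam lie at similar heights in all groups.

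Moxd1 had its lowest geometric mean in KO UVA, at 241, followed by 304 in KO sham, 464 in WT UVA and 547 in WT sham. The SD within a group was 0.04 to 0.08 on the log2 scale (n = 2 each). Neighbouring groups in this order did not overlap. The share of all genes with such an order was not computed, and its genotype part comes from the contrast that chose the gene. Moxd1 was 1.03-fold higher in replicate 2 than in replicate 1, a smaller gap between the numbers than for the other lower genes. Its KO minus WT difference was -0.93 in replicate 1, where the median fibroblast marker differed by 0.06 and the median melanocyte marker by 0.04. It was -0.87 in replicate 2, where these medians were 1.18 and -0.33. In these bulk RNA samples fewer cells that express a gene and less RNA per cell cannot be told apart.

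Nrip3 differed between genotypes within each replicate and even more between replicates. It read 82 and 195 in KO sham (replicates 1 and 2), against 160 and 403 in WT sham. After UVA it read 113 and 202 in KO, against 126 and 400 in WT. In replicate 2 the KO level was 0.494 of the WT level, and in replicate 1 the UVA pair was close. KO was below WT in all 4 matched pairs, as it was for 7.78% of the genes tested, but KO arrays of replicate 2 read above WT arrays of replicate 1. The matched differences were -0.96 and -1.05 after sham and -0.16 and -0.99 after UVA (log2, replicates 1 and 2). Averaged over treatments the difference was -0.79 (SE 0.13 with the number block, 0.54 without it). Nrip3 levels were 2.41-fold higher in replicate 2 than in replicate 1, and summed melanocyte markers were also higher in replicate 2.

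Tmem108 had the widest spread of matched differences among the 3 genes. It read 263 and 475 in KO sham (replicates 1 and 2), against 346 and 821 in WT sham. After UVA it read 301 and 401 in KO, against 468 and 1108 in WT. KO was again below WT in all 4 matched pairs, and the groups overlapped across replicates, since KO sham of replicate 2 exceeded both WT arrays of replicate 1. The matched differences were -0.40 and -0.79 after sham and -0.64 and -1.47 after UVA (log2, replicates 1 and 2). The averaged difference was -0.82 (SE 0.14 with the number block, 0.42 without it), and levels were 1.92-fold higher in replicate 2. For both Nrip3 (-0.56 in replicate 1 and -1.02 in replicate 2) and Tmem108 (-0.52 and -1.13) the difference was larger in replicate 2, the replicate in which melanocyte markers were lower and fibroblast markers higher in KO. The part of these markers in the 2 genes' differences, or in their higher levels in replicate 2, was not tested.

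A second probe set of Tmem108, which the choice of the gene did not use, was dim. It read 37 and 25 in KO sham (replicates 1 and 2), against 33 and 39 in WT sham, and 39 and 29 in KO UVA, against 34 and 45 in WT UVA. KO was lower in both pairs of replicate 2 and higher in both pairs of replicate 1. Whole-number rounding coarsens values this low, and whether the probe set measures the transcript was not tested.

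**Figure D2:**
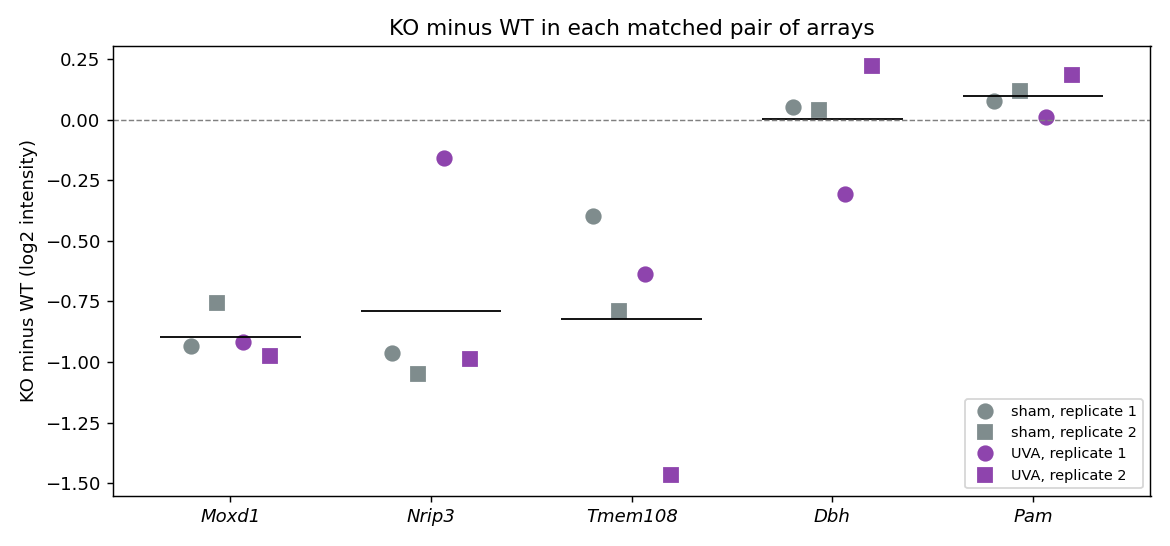
KO minus WT (log2 intensity) for the 5 genes in each of the 4 matched pairs, sham in grey and UVA in purple, circles for replicate 1 and squares for replicate 2, with a black line at their mean. Moxd1 pairs lie between -0.97 and -0.76, Nrip3 pairs between -1.05 and -0.16 and Tmem108 pairs between -1.47 and -0.40, while Dbh pairs fall on both sides of 0 and Pam pairs lie just above it.

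Among all genes the 3 ranked 2 (Moxd1), 3 (Tmem108) and 4 (Nrip3) by size of the averaged decrease. The genes on either side, named after their values were seen, were Ppargc1a at rank 1 (-1.10; -0.42 in replicate 1 and -1.78 in replicate 2), a coactivator of mitochondrial biogenesis, and Col14a1 at rank 5 (-0.74; -0.31 and -1.16), a fibril-associated collagen. Both had a wider gap between the replicates than Moxd1 (-0.93 and -0.87).

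Dbh and Pam, taken for their relation to Moxd1, did not pass in the comparison of KO with WT. Dbh read 86 and 71 in KO sham (replicates 1 and 2), 83 and 69 in WT sham, 76 and 78 in KO UVA, and 94 and 67 in WT UVA. The genotypes overlapped, and the values lay below the array medians of 110 to 115. The averaged KO minus WT difference was 0.00 (95% interval -0.34 to 0.34 without a block and -0.23 to 0.23 with the number block; limma adjusted p = 1 in both). Pam read 2205 and 2128 in KO sham, 2092 and 1960 in WT sham, 1997 and 2037 in KO UVA, and 1981 and 1791 in WT UVA. KO was above WT in all 4 matched pairs, as for 7.65% of the genes tested, by 0.10 log2 units on average. This did not pass the test (limma adjusted p = 1 without a block; 0.625 with the number block), and the interval with that block was -0.03 to 0.22. Moxd2, the remaining mouse gene of the family, read 26 to 29 in KO and 24 to 31 in WT, a difference of -0.01.

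The contrast of UVA with sham played no part in the choice of the genes, and Moxd1 read lower after UVA without passing its test. The UVA array was below the sham array in all 4 matched pairs, as for 9.08% of the genes tested. The UVA minus sham differences were -0.33 and -0.35 in KO (replicates 1 and 2) and -0.34 and -0.13 in WT. On average the UVA level was 0.819 of the sham level, a difference of -0.29 (SE 0.09). The limma adjusted p over all genes was 1 without a block (unadjusted p = 0.0165), 0.671 with the number block and 0.120 with a block for the sham and UVA arrays of each genotype in each replicate, called the genotype-number block. These fits called 0%, 0.0135% and 0.437% of the genes tested. The UVA response did not differ detectably between KO and WT (interaction -0.10, SE 0.17, limma adjusted p = 1; 95% interval -0.53 to 0.33).

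Tmem108 was higher after UVA in both WT pairs, by 0.44 and 0.43 log2 units in replicates 1 and 2, as were 28.2% of the genes tested. In KO the UVA minus sham difference was 0.19 in replicate 1 and -0.24 in replicate 2. The number block called 0.00451% of the genes tested in WT and 0.00902% in KO, and the genotype-number block 0.0541% in WT and 0.00902% in KO. The Tmem108 difference in WT averaged 0.43 (limma adjusted p = 1 without a block, 1 with the number block and 0.326 with the genotype-number block). The interaction was -0.46 (SE 0.83 without a block; 0.16 with the genotype-number block) and did not pass (limma adjusted p = 1 in both). Nrip3 differed by 0.46 and 0.05 after UVA in KO and by -0.34 and -0.01 in WT (replicates 1 and 2), opposite signs in the 2 genotypes, with small values in replicate 2. Its interaction of 0.43 did not pass either (limma adjusted p = 1 without a block, with the number block and with the genotype-number block).

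Dbh had UVA minus sham differences of -0.18 and 0.14 in KO and 0.18 and -0.04 in WT, with no common direction. Pam was lower after UVA in all 4 matched pairs, as were 9.08% of the genes tested, by 0.10 log2 units on average. The 95% interval was -0.30 to 0.09 without a block and -0.200 to -0.007 with the genotype-number block. The limma adjusted p was 1 without a block and 0.352 with the genotype-number block. None of the 5 genes passed in UVA against sham or in the interaction under these 3 fits.

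**Figure D3:**
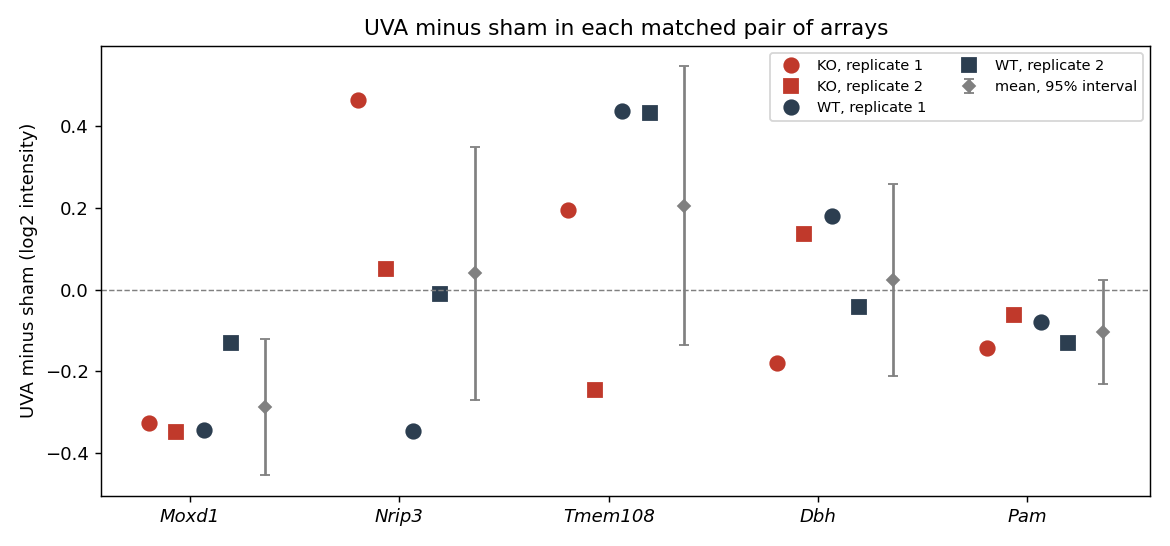
UVA minus sham (log2 intensity) for the 5 genes in each of the 4 matched pairs, KO in red and WT in dark blue, circles for replicate 1 and squares for replicate 2, with a grey diamond at the mean and its 95% interval from limma with the number block. All 4 Moxd1 pairs lie below 0, both WT pairs of Tmem108 lie above 0.4, and Nrip3 pairs lie above 0 in KO and below 0 in WT.

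Genes that supply, surround or resemble the copper monooxygenases were read beside Moxd1. Their lists were tested member by member in the fit over all genes, and read against a background of 0.0316% of genes called in either direction for KO against WT with the number block and 0% without it. Over all 19 lists, 220 genes other than the 5 described were measured. Of these 0 passed either fit for the averaged KO and WT comparison. With the number block 41 of them (18.6%, against 8.88% of all genes) had an unadjusted p under 0.05, 30 of these higher. Without a block 2 did (0.909%, against 2.33%). The lists were chosen with earlier results of these data known and include Atg7, the targeted gene, so these shares are a description. Of 16 measured genes of the catecholamine pathway, 0 passed in either direction, with 5 below 0, 11 above 0 and a median difference of 0.06, against a median of -0.01 over all genes. Pcbd1, which regenerates the tetrahydrobiopterin cofactor of aromatic amino acid hydroxylases, read 0.55 higher in KO (0.57 in replicate 1 and 0.54 in replicate 2; limma adjusted p = 0.102 with the block). Maob, a monoamine oxidase, had a difference of 0.52 (0.14 and 0.90; limma adjusted p = 0.529).

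Of 15 measured copper transport genes 0 passed (median 0.03, with 7 below 0). Steap2, a metalloreductase, had 0.40 (-0.06 in replicate 1 and 0.87 in replicate 2), and Cutc, a copper homeostasis gene, had -0.21. Of 13 other copper enzymes 0 passed (median 0.07, 4 below 0). Lox and Loxl1, which crosslink collagen and elastin and are made by fibroblasts, had 0.67 and 0.59. Lox differed by -0.003 in replicate 1 and 1.34 in replicate 2, and Loxl1 by -0.06 and 1.24. Fibroblast markers, of which 12 of 13 were above 0 (45.8% of all genes) with a median of 0.56, likewise differed more in replicate 2. Their part in the Lox difference was not tested. Of 12 genes of ascorbate supply 0 passed (median 0.01, 6 below 0). Gsto1 and Gsto2, omega-class glutathione transferases that can reduce dehydroascorbate, had 0.47 and 0.40. Gsto1 differed by -0.07 in replicate 1 and 1.01 in replicate 2, and Gsto2 by -0.17 and 0.96.

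The regulated secretory route in which DBH and PAM work gave no call either. Of 15 measured genes of prohormone processing 0 passed (median 0.08, 4 below 0). Cpm, a membrane carboxypeptidase, had 0.44 (0.28 in replicate 1 and 0.60 in replicate 2), and Pcsk6, a proprotein convertase, had 0.32. Of 16 precursors of amidated peptides 0 passed (median 0.06, 3 below 0). Adm, the precursor of adrenomedullin, had 0.94 (0.24 and 1.64), and Cck, the precursor of cholecystokinin, had 0.25.

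**Figure D4:**
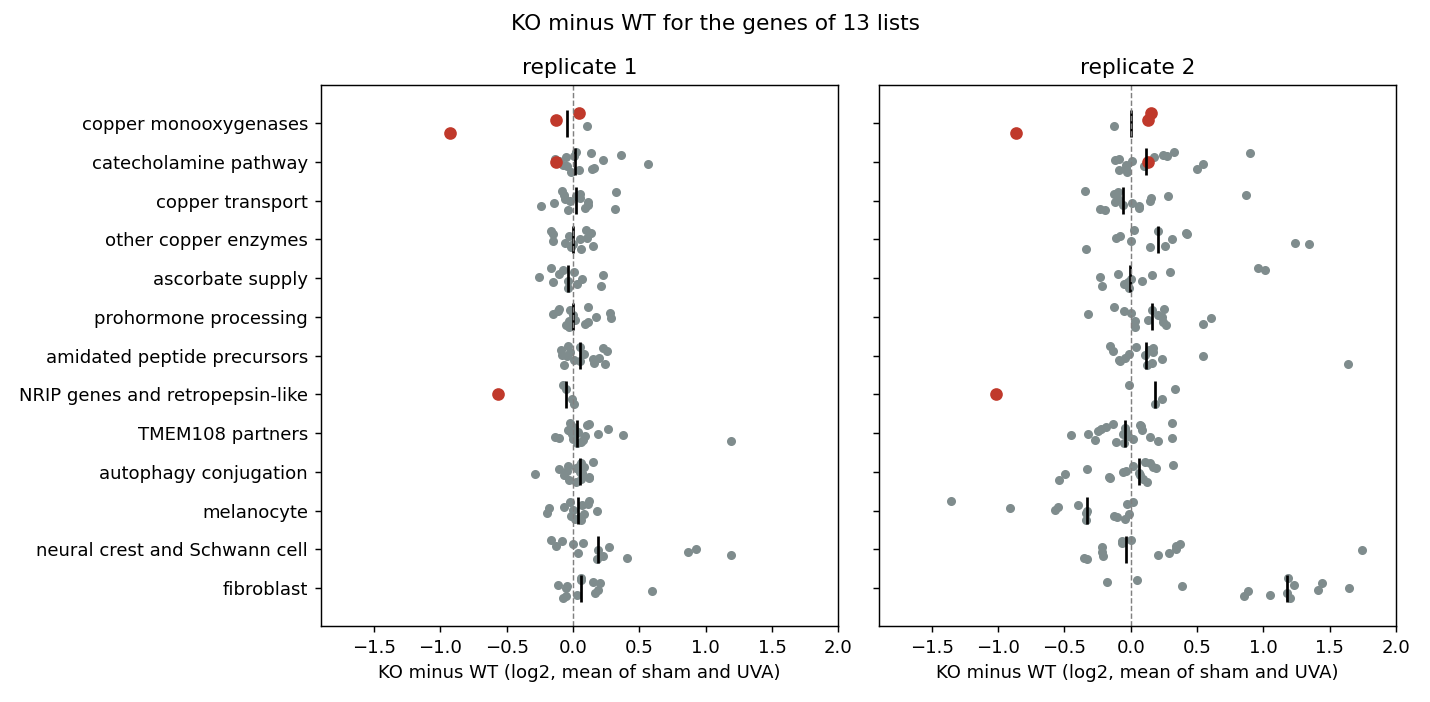
KO minus WT (log2, mean of sham and UVA) in replicate 1 on the left and replicate 2 on the right for the measured genes of 13 lists, with members among the 5 described genes in red, other genes in grey and a black line at each list's median. Moxd1 and Nrip3 lie apart to the left of their lists in both replicates, and the fibroblast median is 0.06 in replicate 1 and 1.18 in replicate 2.

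Of 4 measured genes that share the NRIP name or a retropepsin-like fold with NRIP3 0 passed. Nrip1, a nuclear receptor corepressor that shares the name and not the fold, had 0.09, and Nrip2 had 0.11. Ddi1, a proteasome shuttle factor with a retropepsin-like fold, had 0.14 and Asprv1, a skin aspartic protease, had -0.04.

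Partners of TMEM108 were measured for 22 of 23 listed genes, and 0 passed for KO against WT (median -0.003, 11 below 0). Ngfr, the low-affinity neurotrophin receptor, read 0.70 higher in KO (1.191 in replicate 1 and 0.209 in replicate 2; limma adjusted p = 0.478 with the block). Rab5a, an early endosome GTPase, had 0.14. Autophagy conjugation genes also gave 0 calls among 17, with Atg7 at -0.39 and Atg4a, a protease that trims LC3-family proteins, at -0.28. For UVA against sham averaged over genotypes, 0 list members passed without a block and 0 with the number block. With the genotype-number block, which called 0.239% of genes higher and 0.198% lower, 7 list members passed. Of these, Sqstm1, the gene of the autophagy receptor p62 (0.23, limma adjusted p = 0.0233), and Ednrb, the endothelin receptor of melanocytes (0.50, limma adjusted p = 0.0347), rose after UVA. Ngfr (-0.52, limma adjusted p = 0.0222), the neural adhesion gene Ncam1 (-0.34, limma adjusted p = 0.0131), the melanocortin receptor gene Mc1r (-0.30, limma adjusted p = 0.0347), the neuronal tubulin gene Tubb3 (-0.47, limma adjusted p = 0.0297) and the mesenchymal growth factor receptor gene Pdgfrb (-0.28, limma adjusted p = 0.0485) fell.

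Marker lists placed the 3 genes against the make-up of the cultures. Of 14 melanocyte markers 11 were below 0 on average, against 54.1% of all genes, and 0 passed. The replicates differed here: 5 of the 14 were below 0 in replicate 1 (median 0.04) and 13 in replicate 2 (median -0.33). Ednrb had -0.61 (0.12 in replicate 1 and -1.35 in replicate 2), and Mc1r had -0.54 (-0.18 and -0.91). Of 14 measured neural crest and Schwann cell markers 11 were above 0 on average, against 45.8% of all genes, and 0 passed. The replicates differed: 3 of the 14 were below 0 in replicate 1 (median 0.19) and 7 in replicate 2 (median -0.03). Gap43, a growth cone protein, had 0.97 (0.19 and 1.74). These markers summed to 17428 to 24503 in KO and to 15791 to 24324 in WT. For fibroblasts, Twist2, a mesenchymal transcription factor, and Dpt, a matrix protein, had 0.82 and 0.80.

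Markers of other cell types that pup skin could yield had median KO minus WT differences from -0.03 to 0.07. Keratinocyte markers summed to 899 to 1122 in KO and to 895 to 1063 in WT, myeloid markers to 1438 to 2897 in KO and to 1275 to 1614 in WT, and mast cell markers to 242 to 264 in KO and to 244 to 255 in WT. Endothelial markers summed to 1408 to 1947 in KO and to 1315 to 1791 in WT, skeletal muscle markers to 920 to 1120 in KO and to 905 to 996 in WT, and neuronal markers to 1649 to 2075 in KO and to 1653 to 2650 in WT. For KO against WT, 0 members of these lists passed. Above 0 were 6 of 9 keratinocyte, 3 of 10 myeloid and 7 of 8 mast cell markers, against 45.8% of all genes. So were 6 of 8 endothelial, 4 of 8 skeletal muscle and 8 of 9 neuronal markers. In replicates 1 and 2 the counts were 3 and 7 for keratinocyte, 2 and 6 for myeloid and 6 and 3 for mast cell markers. Many of these markers were dim: 7 of 9 keratinocyte, 8 of 10 myeloid and 8 of 8 mast cell markers were at or below the median level of all genes. The 2 members of each list with the largest absolute difference follow, and Lyz2, Cd68, Vwf and Tubb3 among them ran against most of their lists. The leading members were Krt14, a basal keratin (0.19), Krt10, a keratin of differentiating keratinocytes (0.09), Lyz2, a lysozyme of myeloid cells (1.09; 0.47 in replicate 1 and 1.70 in replicate 2), Cd68, a macrophage protein (0.19), the mast cell proteases Cma1 (0.12) and Tpsb2 (0.05), the endothelial genes Vwf (-0.37) and Kdr (0.32), the muscle genes Acta1 (0.15) and Ckm (0.12), Tubb3 (-0.44) and the neurofilament Nefl (0.25).

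The genes most like each member were found by Pearson's r over the 8 arrays after the mean of each replicate number was subtracted, among the 11090 genes at or above the median level. The arrays share genotype and treatment, so r is a description. Moxd1 was most like Septin6, a septin GTPase of the cytoskeleton (r = 0.976), Ten1 (0.961), B3glct (0.956), Zdhhc5, a palmitoyltransferase (0.953) and Calr, the chaperone calreticulin (0.953). These genes shared its shape at smaller size, with KO minus WT differences of -0.21, -0.07, -0.21, -0.06 and -0.12. Adh7, a class IV alcohol dehydrogenase, ran opposite (r = -0.976), with 1.49 in KO against WT and 0.63 in UVA against sham. Mbnl3, an RNA-binding protein (r = -0.975, difference 0.52), and Slc20a2, a phosphate transporter (r = -0.978, difference 0.12), were the others.

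Nrip3 was most like Selenbp1, a selenium-binding protein (r = 0.987, KO minus WT -0.32), followed by BC055324 (0.974), Plekhg3 (0.971), Wnk2, a kinase (0.970) and Gm7160 (0.969). Slc22a15 (-0.990), Adipor1, an adiponectin receptor (-0.989) and Isca1, an iron-sulphur cluster assembly factor (-0.975), were most opposite. Tmem108 was most like Papln, the matrix protein papilin (r = 0.994, KO minus WT -0.31), Tha1 (0.988), Ip6k3 (0.978), Knop1 (0.978) and Spice1 (0.978). Entpd1, the ectonucleotidase CD39 (r = -0.988), had 1.01 in KO against WT and -0.35 in UVA against sham, and Pfkl (-0.986) and the aminopeptidase Lvrn (-0.979, KO minus WT 0.96) were the other opposites. Between the members, r was 0.835 for Moxd1 and Nrip3, 0.764 for Moxd1 and Tmem108 and 0.852 for Nrip3 and Tmem108. These values were favoured by the choice of the 3 genes for a shared difference. Moxd1 had r = -0.046 with Dbh and -0.392 with Pam. Nrip3 had r = -0.383 with Dbh and -0.734 with Pam, and Tmem108 had -0.232 and -0.834. The values with Dbh and Pam also hold the KO minus WT difference that chose the 3 genes. Pam was slightly higher in KO without passing, so its negative values do not test an opposition.

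The 3 genes lie on chromosomes 10 (Moxd1), 7 (Nrip3) and 9 (Tmem108). The 3 nearest measured genes on each side, by their order in the RefSeq table of GRCm38.p6, had averaged KO minus WT differences from -0.10 (Stx7, a syntaxin) to 0.48 (Ccn2, connective tissue growth factor) around Moxd1. They ran from -0.06 (Tmem9b) to 0.16 (Scube2) around Nrip3 and from -0.11 (Bfsp2) to 0.16 (Ackr4) around Tmem108. Of these 18 neighbours 0 passed with the number block (1 at an unadjusted p under 0.05, Enpp3, with limma adjusted p = 0.545). Ccn2 differed by -0.11 in replicate 1 and 1.08 in replicate 2.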

How the data were processed

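Arrays were 1-colour Affymetrix whole-transcript arrays, 8 in all. The deposited intensity values are, per the submitters' processing notes, RMA values (background correction, quantile normalization and probe summarisation) from Affymetrix Expression Console 1.3.1.187. They are whole numbers on a linear scale, and log2 was taken here. The genome build of the probe annotation is not given in the sources used here. Quantile normalization hides a shift common to most transcripts.

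Of 41345 probe sets, 23521 had a single symbol and gave 22180 genes. Means of 4 groups were fitted to all arrays with limma 3.58.1 in R 4.3.3 (eBayes with a trend, two-sided, Benjamini-Hochberg over all genes, threshold 0.05), after a test on simulated data. The replicate number was also fitted as a block (the number block). That the numbers pair the arrays rests on the data: between groups, same-numbered arrays deviated together in each of the 6 pairs of groups (correlations of 0.80 to 0.92). The sham and UVA arrays of 1 genotype and number enter the blocked genotype fit as separate arrays, so its SEs are too small if they came from 1 culture. Residual degrees of freedom were 4, 3 with that block and 2 with the genotype-number block. Fits to the averaged sham and UVA arrays had 2, or 1 with the number block. The number of arrays limits the precision, and p-values measure the spread between these arrays, part of which may be technical.

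The members and the 19 gene lists were chosen with earlier results of these data known. Named genes are the 5 members, Atg7, list members past the threshold, the 2 members of each list with the largest averaged difference, and the 5 genes most like and 3 most opposite to each member. Chromosomal neighbours, promoter motifs and genes called with the genotype-number block were added after the data were seen.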

Additional observations from a re-analysis of the deposited data

Results flagged for a closer look

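Nrip3 had UVA minus sham differences above 0 in both KO pairs (0.46 and 0.05 log2 units in replicates 1 and 2) and below 0 in both WT pairs (-0.34 and -0.01). The difference between these responses was 0.43, with a limma adjusted p of 1. This pattern of signs held for 2.94% of the genes tested.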

How the results depend on the processing

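With the number block, the replicate number as a term that pairs the arrays, 7 genes passed for the averaged KO and WT comparison. For UVA against sham, 2 passed in KO cells, 1 in WT cells and 3 on average. Without a block 0 passed in each. With the genotype-number block the UVA counts were 2 in KO cells, 12 in WT cells and 97 on average. No listed gene but Moxd1 gained a call from the number block. With the sham and UVA arrays of each genotype and number averaged first, 0 genes passed for KO against WT (257 genes had an unadjusted p under 0.05, or 736 when numbers were blocked).

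Leaving out each array in turn, with and without the number block, left 0 genes past the threshold for KO against WT (so the Moxd1 call rests on all 8 arrays), and 0 to 2 for UVA averaged over genotypes. The averaged KO minus WT difference then ran from -0.94 to -0.85 for Moxd1, -1.21 to -0.37 for Nrip3, -1.13 to -0.51 for Tmem108 and -0.12 to 0.12 for Dbh. With the number block it ran from -0.93 to -0.64 for Nrip3 and -0.997 to -0.647 for Tmem108. The extremes of Nrip3 came without WT UVA replicate 1 (-1.21) and without WT UVA replicate 2 (-0.37). After sham it ran from -1.67 to -0.34 for Nrip3, -1.22 to 0.031 for Tmem108, turning sign without WT sham replicate 2, and -0.092 to 0.18 for Dbh. After UVA it ran from -1.003 to -0.888 for Moxd1, -1.40 to 0.26 for Nrip3, turning sign without WT UVA replicate 2, -1.67 to -0.43 for Tmem108 and -0.29 to 0.20 for Dbh. These swings have arrays of unequal replicate numbers on the 2 sides. The sign change of Tmem108 after sham came without the number block, and with the block the same omission gave -0.39.

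UVA minus sham under the same omissions ran, in KO, from -0.37 to 0.88 for Nrip3, -0.45 to 0.40 for Tmem108 and -0.21 to 0.17 for Dbh. In WT it ran from -1.01 to 0.66 for Nrip3, -0.19 to 1.06 for Tmem108 and -0.18 to 0.31 for Dbh. Averaged, it ran from -0.38 to 0.46 for Nrip3, -0.11 to 0.52 for Tmem108 and -0.10 to 0.15 for Dbh, and stayed below 0 for Moxd1 (-0.33 to -0.24). The interaction ran from -0.40 to 1.27 for Nrip3, -1.08 to 0.16 for Tmem108, -0.33 to 0.15 for Dbh and -0.071 to 0.074 for Pam.

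Under the remaining settings, several of which cannot move an estimate, values that changed sign were Dbh in replicate 1 alone (-0.13 for KO minus WT averaged) and in replicate 2 alone after UVA (0.22), Tmem108 for UVA in KO with the mean of all its probe sets (0.060), and the Pam interaction with quantile normalization repeated (-0.0031) or arrays centred on their medians (-0.0053). The cause was not tested. Rounding limits dim probe sets such as Moxd2.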
